A study of Mus musculus with 12 samples.

Results

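The activation of wild type mouse CD4 T cells was measured by RNA sequencing after 48 h of culture with antibodies to CD3 and CD28, against the same kind of cell at 0 h. The comparison took every gene of the deposited expression table and the 3 libraries of each time point, chosen by their titles, so 6 of the 12 libraries of the series. The series paired wild type cells with cells lacking Mettl3, a subunit of the m6A RNA methyltransferase, or Nudt21, a subunit of the machinery that selects polyadenylation sites, and only wild type cells of the Mettl3 set were sampled at both times. All cells were naive CD4 T cells of wild type C57BL/6 mice, sorted from spleen and lymph nodes. The 0 h group had no treatment and the 48 h group was kept in culture medium with the 2 antibodies. No unstimulated culture of 48 h was among the samples used, so stimulation and time in culture cannot be told apart. The sources used here give no age, no gates of the sort and no animal for each library. Xist, transcribed from the inactive X chromosome, was high in replicates 1 and 2 and near 0 in replicate 3 at both times, while the Y-linked Ddx3y had the reverse pattern, so each group held cells of at least 2 animals. Same-numbered libraries also deviated together, but no label ties a library to an animal, so each p-value speaks only of the spread among libraries. That spread, and the SE with it, was pooled over all 12 libraries of the series, knockouts included, and not the 6 alone.

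Binding of the T cell receptor by antigen, mimicked here by anti-CD3, starts kinase, calcium and NF-kB signalling, and CD28 supplies the costimulatory signal. A naive cell that receives both leaves its resting state, takes up more glucose and amino acids, grows, enters the cell cycle and begins to make effector molecules. The proteins that hold naive cells at rest and keep them circulating through lymphoid organs are usually withdrawn over the same period.

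The given markers of activation separated the times in every library. Il2ra, the high-affinity chain of the interleukin-2 receptor (ENSMUSG00000026770, mm10 chr2:11642807-11693193, + strand, protein coding), was at 2.44, 2.48 and 2.86 FPKM at 0 h and 191, 200 and 162 FPKM at 48 h (log2 change 5.68, SE 0.31, limma adjusted p = 7.89e-08). Gzmb, a granule protease (ENSMUSG00000015437, mm10 chr14:56258838-56262260, - strand, protein coding), was at 0.272, 0.157 and 0.192 FPKM at 0 h and 146, 115 and 232 FPKM at 48 h (log2 change 7.04, SE 0.45, limma adjusted p = 2.42e-07). Hk2, a hexokinase (ENSMUSG00000000628, mm10 chr6:82725025-82774454, - strand, protein coding), was at 0.12, 0.132 and 0.107 FPKM at 0 h and 51.5, 57.1 and 50.3 FPKM at 48 h (log2 change 5.59, SE 0.27, limma adjusted p = 3.75e-08). These 3 genes were near the bottom of the scale in every resting library and the groups did not overlap. Aurkb, a kinase of chromosome segregation (ENSMUSG00000020897, mm10 chr11:69045647-69051664, + strand, protein coding), was at 0.27, 0.379 and 0.231 FPKM at 0 h and 120, 121 and 119 FPKM at 48 h (log2 change 6.55, SE 0.39, limma adjusted p = 1.46e-07). Il7r, the receptor chain through which interleukin-7 keeps naive cells alive (ENSMUSG00000003882, mm10 chr15:9505788-9530176, - strand, protein coding), was at 192, 168 and 132 FPKM at 0 h and 4.41, 3.05 and 6.28 FPKM at 48 h (log2 change -4.91, SE 0.22, limma adjusted p = 2.35e-08). All 5 markers thus moved as the labels of the 2 times would have them. In the 2 resting wild type libraries of the Nudt21 set, which no change here was computed from, Il2ra stood at 1.8 and 2.05 FPKM, Gzmb at 0.569 and 0.38 FPKM, Hk2 at 0.217 and 0.139 FPKM, Aurkb at 0.486 and 0.443 FPKM and Il7r at 166 and 159 FPKM.

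CD4 T cell identity was checked in the same libraries. Cd4 itself was at 224, 243 and 232 FPKM at 0 h and 174, 170 and 167 FPKM at 48 h and Cd8a at 0.368, 0.241 and 0.455 FPKM at 0 h and 0.174, 0.166 and 0.797 FPKM at 48 h. Of the 12 markers tested for CD8, NK and gamma-delta T cells none rose and 4 fell, and their summed level was 33.9 to 40.7 FPKM at 0 h and 15.1 to 19.7 FPKM at 48 h. The share that fell, 33.3%, was near the 34.9% of all genes tested that fell, while 43.6% of all genes rose. The markers that fell were Klrd1, Trdc, Tcrg-C1 and Tcrg-C2, of which the last 2 lost their calls when single libraries were left out. For Tcrg-C1 these were replicate 1 or 2 at 0 h and replicate 3 at 48 h (limma adjusted p = 0.0523 to 0.0593), and for Tcrg-C2 any library but replicate 3 at 0 h (limma adjusted p = 0.0601 to 0.103). Markers of B and plasma cells summed to 4.42 to 11.8 FPKM at 0 h and 3.02 to 4.68 FPKM at 48 h, and none of the 9 tested passed. Among 14 myeloid and dendritic markers, 1 rose (Cst3, which T cells also transcribe) and 1 fell (Itgam, whose call was lost without any single library, limma adjusted p = 0.0639 to 0.0811). Csf1r, Adgre1, Itgax and C1qb were all under 1 FPKM, and all 4 passed as lower when only the 6 libraries were fitted (limma adjusted p = 2.32e-05 for Csf1r, 9.89e-06 for C1qb, 0.0185 for Adgre1 and 0.0488 for Itgax). With a replicate block added, Itgax no longer passed and the others did (limma adjusted p = 0.0003 for Csf1r, 0.000115 for C1qb and 0.0482 for Adgre1). What part cells of these types had in the results below was not tested. Globin and platelet markers summed to 17.3 to 28.6 FPKM at 0 h and 1.81 to 2.12 FPKM at 48 h, and 3 of the 7 tested fell (42.9%, against 34.9% of all genes tested). Stromal and endothelial markers summed to 62.4 to 77.4 FPKM at 0 h and 33 to 38 FPKM at 48 h, nearly all of it Pecam1, which naive T cells also carry; it was at 63.4, 76.9 and 62 FPKM at 0 h and 37.7, 32.7 and 37.3 FPKM at 48 h and fell (log2 change -0.89, SE 0.10, limma adjusted p = 2e-05), while the other 6, Col1a1 and Cdh5 among them, were under 1 FPKM in all 6 libraries and not tested. In bulk samples fewer cells of a type and less RNA per cell cannot be told apart, and FPKM, a fragment count scaled to the length of the transcript and the size of the library, gives each gene relative to all others, not per cell.

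Most genes differed between the times. Of 12511 genes tested, 9822 (78.5%) passed limma's test at an adjusted p under 0.05, 5451 of them higher at 48 h (43.6%) and 4371 lower (34.9%). A change of at least 2-fold was found for 2246 higher genes (18.0%) and 1201 lower genes (9.60%). The median log2 change of all genes tested was 0.069, and every count of a gene list below is to be read against these shares. In the values as deposited the rising side held the larger changes: 758 genes rose and 210 fell by at least 4-fold, 304 rose and 44 fell by at least 8-fold, and 43 rose and 3 fell by at least 32-fold. The libraries of the 2 times did not overlap for 10369 genes (82.9%). A switch from under 0.5 FPKM in all resting libraries to at least 5 FPKM in all 48 h libraries was seen for 175 genes, and the reverse for 9. With quantile scaling, which lowers the median change to -0.106, the balance of directions turned, to 4473 genes higher and 5310 lower.

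**Figure D1:**
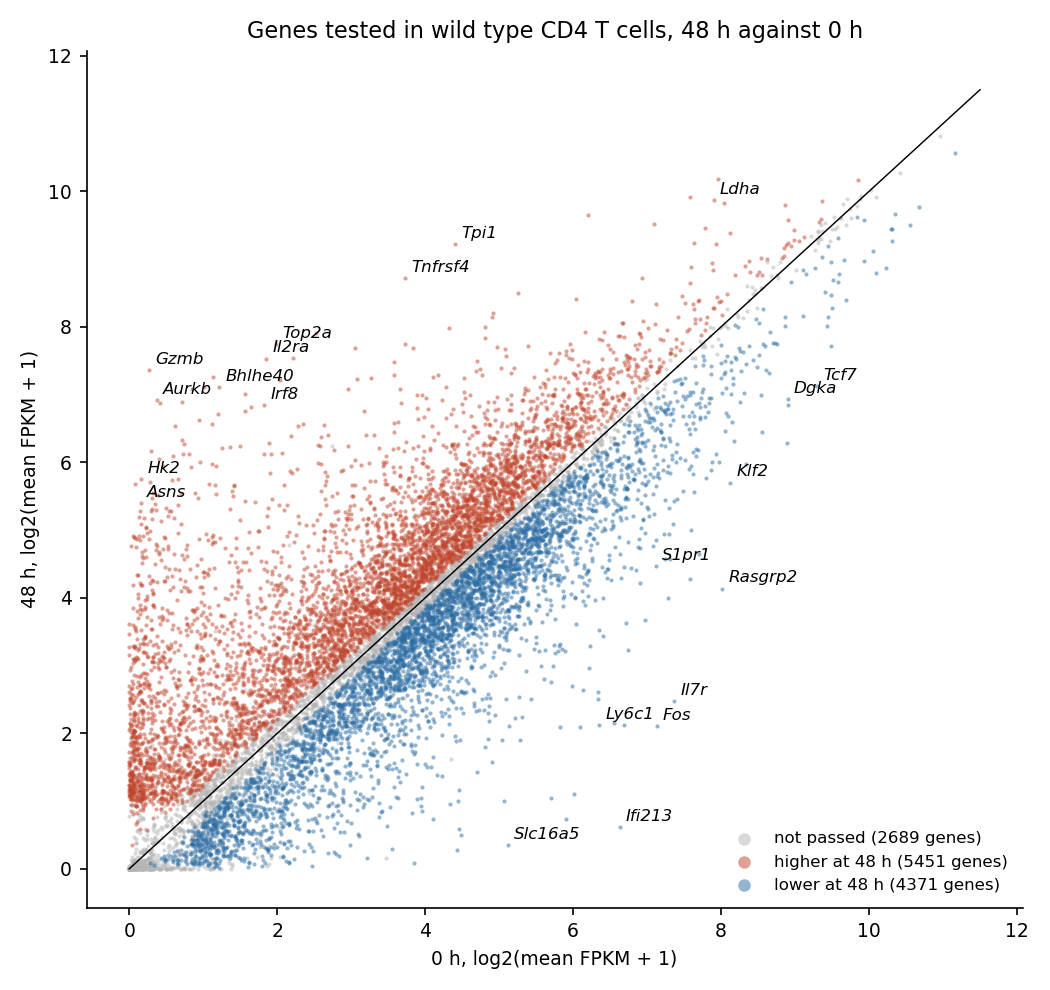
Each point is a gene tested, placed by its mean of 3 libraries at 0 h (horizontal axis) and at 48 h (vertical axis), both as log2(FPKM + 1), and coloured by its call with limma. The 5451 higher genes reach farther from the diagonal than the 4371 lower genes.

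Cell cycle genes and Gzmb led the rise, next to genes less often named with T cell activation. The 15 risers with the largest log2 change, after Gzmb, included Ifitm2, a membrane protein that restricts virus entry, at 0.262, 0.385 and 0.355 FPKM at 0 h and 117, 132 and 102 FPKM at 48 h (log2 change 6.46, SE 0.83, limma adjusted p = 4.11e-05). Egln3, a prolyl hydroxylase of the oxygen-sensing pathway, was at 0.659, 0.792 and 0.953 FPKM at 0 h and 128, 129 and 147 FPKM at 48 h (log2 change 6.23, SE 0.16, limma adjusted p = 1.72e-09). Nrn1, which encodes the surface protein neuritin, was at 0.703, 1.12 and 1.2 FPKM at 0 h and 137, 147 and 128 FPKM at 48 h (log2 change 6.12, SE 0.22, limma adjusted p = 8.42e-09). None of these was above 1.5 FPKM in the 3 libraries at 0 h, though Ifitm2 was at 5.11 and 2.17 FPKM in the resting wild type libraries of the Nudt21 set. The metallothionein Mt1, a metal-binding protein, was at 0.0644, 0.27 and 0.359 FPKM at 0 h and 57.2, 47.8 and 107 FPKM at 48 h (log2 change 5.78, SE 0.64, limma adjusted p = 1.45e-05), with replicate 3 above the other two at 48 h. The other members of the group were Bhlhe40, a repressor needed for effector cytokines, Il2ra and 8 genes of the cell cycle, Aurkb, Pclaf, Ube2c, Ccna2, Top2a, Mki67, Tpx2 and Ccnb2.

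On the falling side, 5 of the 15 genes with the largest log2 change belong to the Ifi200 family of interferon-inducible DNA sensors, which lie side by side on chromosome 1. Ifi213 was at 96.1, 102 and 95.6 FPKM at 0 h and 0.21, 0.169 and 1.21 FPKM at 48 h (log2 change -6.08, SE 0.24, limma adjusted p = 1.41e-08), and Ifi208 was at 48.7, 46.7 and 81.8 FPKM at 0 h and 0.159, 0.1 and 1.72 FPKM at 48 h (log2 change -5.26, SE 0.33, limma adjusted p = 2.3e-07). Ifi206, Ifi209 and Ifi214 fell from 63.3 to 1.16 FPKM, from 67.3 to 3.25 FPKM and from 20.9 to 0.502 FPKM. These genes resemble each other closely and may share reads, so the split of the signal among them is uncertain. In replicate 3 of the 48 h group several of the lowered genes were higher than in replicates 1 and 2: Ly6c1, a surface protein of resting CD4 T cells, was at 71.6, 86.2 and 83.6 FPKM at 0 h and 0.764, 0.868 and 8.4 FPKM at 48 h (log2 change -4.69, SE 0.52, limma adjusted p = 1.48e-05). Even that library stayed far under the 0 h group. The remaining genes were Fos, Il7r, the monocarboxylate transporter Slc16a5, the kinase Sgk1, the Notch regulator Dtx1, the RNase L activator Oas2, the growth-restraining Slfn5, the Ras activator Rasgrp2 and Smad7, an inhibitor of TGF-beta signalling. Smad7 was at 86.1, 79 and 74.1 FPKM at 0 h and 4.24, 3.92 and 5.85 FPKM at 48 h (log2 change -3.85, SE 0.17, limma adjusted p = 2.1e-08), and Rasgrp2 at 292, 252 and 227 FPKM at 0 h and 17, 15.3 and 17.6 FPKM at 48 h (log2 change -3.87, SE 0.11, limma adjusted p = 3.39e-09).

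**Figure D2:**
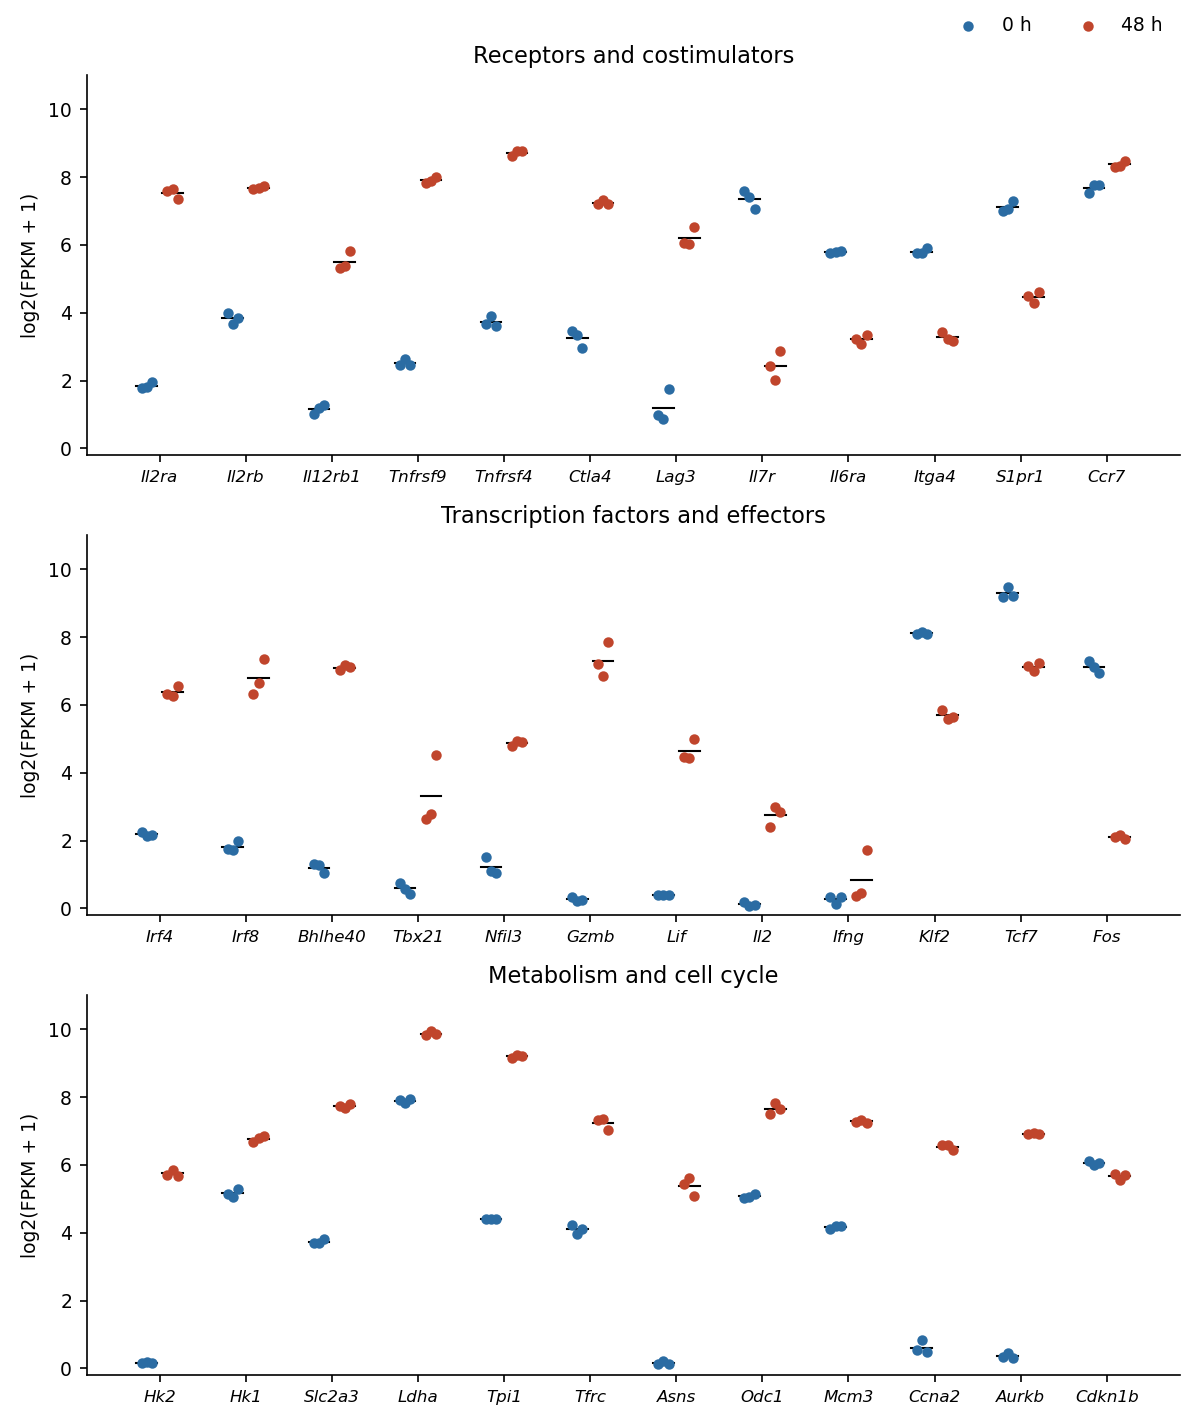
Level of 36 named genes in each library as log2(FPKM + 1): blue points are the 3 libraries at 0 h, red points the 3 at 48 h, and black lines the group means. Libraries of the 2 times stand apart for nearly all of them; Ifng is low at both times.

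Most transcripts of the receptor complex and of the proximal signalling genes became relatively less abundant. Among the receptor complex and coreceptors, 2 of 12 genes rose and 9 fell (median log2 change -0.56), and among proximal signalling genes 7 of 34 rose and 22 fell (median log2 change -0.63). Cd247, the zeta chain, fell from 200 ± 8.95 to 89.4 ± 10.5 FPKM (mean ± SD of 3 libraries, as in all such pairs below; log2 change -1.16, SE 0.08, limma adjusted p = 4.4e-07). Prkcq, the kinase that links the receptor to NF-kB, was at 113, 121 and 120 FPKM at 0 h and 28.9, 28.7 and 26.8 FPKM at 48 h (log2 change -2.03, SE 0.05, limma adjusted p = 1.5e-09). Dgka, which destroys the diacylglycerol that activates Prkcq and Rasgrp1, was at 455, 523 and 451 FPKM at 0 h and 127, 108 and 129 FPKM at 48 h (log2 change -1.96, SE 0.10, limma adjusted p = 5.2e-08). Both sets of libraries were separated by a wide gap. The genes that rose were Zap70, the kinase recruited to the zeta chain (from 126 to 166 FPKM), Ptpn6, Nfatc1, Sla, Cblb, Malt1 and Ubash3b. Cblb, a ubiquitin ligase that dampens signalling, rose from 26.1 to 55.1 FPKM while its relative Cbl fell from 50.8 to 22.5 FPKM. Malt1, the protease of the complex that activates NF-kB, rose from 34.8 to 77.2 FPKM.

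Costimulatory receptors and checkpoints went the other way: 11 of 18 tested rose and 4 fell (median log2 change 1.44). Tnfrsf4, the OX40 receptor that prolongs T cell responses, was at 11.8, 13.9 and 11.3 FPKM at 0 h and 396, 433 and 433 FPKM at 48 h (log2 change 4.99, SE 0.15, limma adjusted p = 3.82e-09). Lag3, an inhibitory receptor for MHC class II, was at 0.959, 0.828 and 2.36 FPKM at 0 h and 65.1, 64.3 and 90.8 FPKM at 48 h (log2 change 5.0, SE 0.53, limma adjusted p = 9.46e-06). Ctla4, which competes with CD28 for its ligands, was at 9.97, 9.21 and 6.83 FPKM at 0 h and 147, 158 and 146 FPKM at 48 h (log2 change 3.98, SE 0.25, limma adjusted p = 2.39e-07). In each case the lowest 48 h library lay several-fold above the highest resting one. The other risers included Tnfrsf18 from 29.3 to 293 FPKM, Icos from 14.8 to 70.8 FPKM, Cd200 from 5.41 to 83.6 FPKM, Tigit from 0.666 to 22.8 FPKM and Pdcd1 from 1.77 to 17.8 FPKM. Activating and inhibitory receptors therefore rose side by side. The 4 that fell were Cd96, Tnfrsf26, Cd27 and Tnfrsf25, with Cd96 from 55.7 to 9.03 FPKM and Tnfrsf25 from 46.3 to 21.3 FPKM.

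Cytokine receptor genes moved in both directions, more of them down. Of those tested, 6 of 28 rose and 15 fell (median log2 change -0.30). Il2rb, the signalling chain of the receptors for interleukin-2 and interleukin-15, was at 14.8, 11.6 and 13.5 FPKM at 0 h and 200, 205 and 211 FPKM at 48 h (log2 change 3.86, SE 0.42, limma adjusted p = 1.26e-05). The shared gamma chain Il2rg was the most abundant of the 3 at rest and fell, standing at 290, 326 and 302 FPKM at 0 h and 199, 199 and 197 FPKM at 48 h (log2 change -0.62, SE 0.05, limma adjusted p = 2.41e-06). At 0 h Il2rg thus exceeded Il2ra and Il2rb many times over, and at 48 h the 3 chains were at like levels, with means of 184, 205 and 198 FPKM. The interleukin-12 receptor appeared as well: Il12rb1 from 1.26 to 45.2 FPKM and Il12rb2 from 0.0986 to 8.58 FPKM. Receptors read in resting cells were lowered, among them Il6ra, the binding chain for interleukin-6, at 53.4, 54.9 and 55.5 FPKM at 0 h and 8.32, 7.47 and 9.16 FPKM at 48 h (log2 change -2.58, SE 0.13, limma adjusted p = 5.07e-08). Its signalling partner Il6st from 49 to 12.5 FPKM, the TGF-beta receptor Tgfbr2 from 69.5 to 14.5 FPKM, Il27ra from 128 to 38.9 FPKM, Il18r1 from 15.4 to 3.54 FPKM and Il21r from 94.9 to 47.7 FPKM fell too. Downstream, 9 of 19 JAK, STAT and SOCS genes rose and 7 fell, shares near those of all genes. Among them were Stat5a from 26.8 to 77.2 FPKM, Jak3 from 70.8 to 134 FPKM, Jak1 from 202 to 72.6 FPKM and Tyk2 from 27.3 to 19.4 FPKM. The feedback inhibitor Socs2 was at 0.513, 0.333 and 0.312 FPKM at 0 h and 32.5, 31 and 23.2 FPKM at 48 h (log2 change 4.42, SE 0.31, limma adjusted p = 5.02e-07), which put it from near 0 to the level of Socs3.

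Few cytokine genes reached high levels. Of 26 cytokine and chemokine genes tested, 14 rose and 3 fell (median log2 change 0.77), and 16 more were too low to test. Il2, the growth factor of T cells, was at 0.143, 0.0418 and 0.0802 FPKM at 0 h and 4.24, 6.97 and 6.2 FPKM at 48 h (log2 change 2.62, SE 0.16, limma adjusted p = 1.67e-07). Lif, a cytokine of the interleukin-6 family, was at 0.324, 0.317 and 0.311 FPKM at 0 h and 21.1, 20.6 and 30.8 FPKM at 48 h (log2 change 4.23, SE 0.14, limma adjusted p = 5.03e-09). Ifng, the hallmark cytokine of Th1 cells, was at 0.265, 0.0889 and 0.264 FPKM at 0 h and 0.276, 0.358 and 2.32 FPKM at 48 h and did not pass (log2 change 0.57, SE 0.51, limma adjusted p = 0.323). The cytokines that define other helper fates were not tested, and Il4 stayed at 0.221, 0.294 and 0.197 FPKM at 0 h and 0.227, 0.217 and 0.229 FPKM at 48 h, while Il17a was listed at 0 in all 3 libraries at 48 h. Members of the tumour necrosis factor family rose: Lta from 13.9 to 74.7 FPKM, Tnfsf11 from 2.14 to 24.4 FPKM, Tnf from 8.99 to 20 FPKM and Tnfsf14 from 0.426 to 11.8 FPKM. Tgfb1 rose from 81 to 138 FPKM. The lowered genes were Il16 from 92.8 to 45.1 FPKM, Ltb from 330 to 209 FPKM and Cd40lg from 78.6 to 38.1 FPKM, the ligand by which helper cells activate B cells.

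Cytotoxic genes did not move as a block: 41.7% rose and 25% fell, against 43.6% and 34.9% of all genes tested. 5 of 12 rose, and besides Gzmb these were Gzmc, Srgn, Serpinb9 and Serpinb6b, while 3 fell. Prf1, the pore-forming perforin that delivers granzymes, was at 12.6, 11.2 and 19.7 FPKM at 0 h and 1.02, 0.843 and 2.07 FPKM at 48 h (log2 change -2.75, SE 0.22, limma adjusted p = 1.36e-06). Ctsw, a cathepsin of cytotoxic cells, fell from 37.8 ± 2.26 to 2.75 ± 1.07 FPKM. At 48 h the libraries thus held Gzmb at 115 to 232 FPKM with Prf1 at 0.843 to 2.07 FPKM. Serpinb9, the inhibitor that protects a cell from its own granzyme B, rose from 3.87 ± 0.812 to 7.99 ± 0.737 FPKM.

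Among effector and activation transcription factors 15 of 27 rose and 8 fell (median log2 change 0.66). Irf8, a factor better known from myeloid cells, was at 2.36, 2.31 and 2.95 FPKM at 0 h and 79.4, 100 and 163 FPKM at 48 h (log2 change 4.96, SE 0.38, limma adjusted p = 8.88e-07). Irf4, which scales the response to receptor strength, was at 3.77, 3.35 and 3.5 FPKM at 0 h and 79.3, 76.1 and 92.9 FPKM at 48 h (log2 change 4.20, SE 0.10, limma adjusted p = 1.07e-09). Bhlhe40 was at 1.48, 1.42 and 1.04 FPKM at 0 h and 129, 143 and 138 FPKM at 48 h (log2 change 5.90, SE 0.30, limma adjusted p = 5.14e-08). All 3 were near the bottom of the scale at rest. Zbtb32, a repressor induced by activation, rose from 0.293 ± 0.158 to 26.1 ± 4.32 FPKM, and Nfil3 rose from 1.35 ± 0.418 to 28.5 ± 1.71 FPKM. Tbx21, which directs the Th1 fate, was at 0.69, 0.489 and 0.349 FPKM at 0 h and 5.27, 5.9 and 22.2 FPKM at 48 h (log2 change 2.73, SE 0.60, limma adjusted p = 0.00186), with replicate 3 at 48 h well above the others. Its Th2 counterpart Gata3 fell from 19.2 ± 0.234 to 13 ± 0.393 FPKM (log2 change -0.53, SE 0.05, limma adjusted p = 2.36e-06). Foxp3, the regulatory T cell factor, was at 4.72, 3.81 and 5.93 FPKM at 0 h and 3.57, 4.24 and 2.25 FPKM at 48 h and did not pass (limma adjusted p = 0.255). Bcl6 fell from 7.32 ± 0.648 to 1.19 ± 0.255 FPKM and Prdm1, with which it forms a mutually repressing pair, fell from 1.38 ± 0.313 to 0.32 ± 0.091 FPKM. Batf, an AP-1 partner of Irf4, fell from 22.4 ± 2.19 to 17.8 ± 1.24 FPKM, so that the 2 partners moved in opposite directions. Myc rose from 66.2 ± 3.41 to 129 ± 5.26 FPKM (log2 change 0.95, SE 0.07, limma adjusted p = 9.48e-07) and its antagonists diverged, with Mxd3 from 0.288 to 25 FPKM and Mxd4 from 38.3 to 18.1 FPKM.

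Immediate-early genes were found higher and lower at 48 h in equal number, near the shares of all genes. Of 22 genes of this group 9 rose and 9 fell. Fos was at 156, 138 and 123 FPKM at 0 h and 3.28, 3.51 and 3.16 FPKM at 48 h (log2 change -5.01, SE 0.08, limma adjusted p = 1.32e-10), and Jun at 133, 121 and 121 FPKM at 0 h and 10.9, 10.8 and 13.3 FPKM at 48 h (log2 change -3.32, SE 0.08, limma adjusted p = 1.54e-09). Libraries at 0 h therefore held far more transcript of the classical AP-1 pair than those at 48 h. What part the isolation and sorting of the cells had in the 0 h levels was not tested. Another AP-1 member, Fosl2, rose from 5.21 ± 1.25 to 28.2 ± 2.58 FPKM. Nr4a3, an orphan nuclear receptor induced by the T cell receptor, was at 6.94, 5.1 and 5.39 FPKM at 0 h and 63.6, 70.7 and 80.2 FPKM at 48 h (log2 change 3.42, SE 0.12, limma adjusted p = 7.16e-09), while its relative Nr4a1 was at 182, 170 and 120 FPKM at 0 h and 173, 190 and 181 FPKM at 48 h and passed only without replicate 1 at 0 h (limma adjusted p = 0.0377). Egr3 rose from 10.5 ± 1.41 to 40.6 ± 2.91 FPKM. Phosphatases that switch off MAP kinases were split too, with 8 higher and 5 lower of 16 DUSP and Sprouty genes. These shares were also near those of all genes. Dusp4 was at 1.38, 1.28 and 1.11 FPKM at 0 h and 61.4, 66.9 and 53.9 FPKM at 48 h (log2 change 4.77, SE 0.12, limma adjusted p = 1.93e-09). Dusp1, the founding member of the family, was at 123, 103 and 85.5 FPKM at 0 h and 11.1, 12 and 11 FPKM at 48 h (log2 change -3.07, SE 0.11, limma adjusted p = 9.34e-09). In the NF-kB group 7 of 19 rose and 8 fell, again near the shares of all genes. The subunits Nfkb2 from 22.2 to 122 FPKM, Nfkb1 from 77.7 to 150 FPKM and Rel from 11.6 to 38 FPKM rose. The inhibitory Tnfaip3 from 158 to 22.9 FPKM and the kinases Ikbke from 164 to 41.9 FPKM and Ikbkb from 98.6 to 35.7 FPKM fell.

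Factors that hold naive cells at rest were lowered almost throughout, with 29 of 34 lower and 2 higher (median log2 change -1.23). Klf2, which keeps homing receptors on, was at 273, 285 and 272 FPKM at 0 h and 56.4, 47.5 and 49.1 FPKM at 48 h (log2 change -2.42, SE 0.07, limma adjusted p = 2.88e-09). Tcf7, a factor of naive and memory cells, was at 585, 715 and 590 FPKM at 0 h and 141, 128 and 149 FPKM at 48 h (log2 change -2.16, SE 0.09, limma adjusted p = 2.2e-08). Its relative Lef1 fell less, standing at 171, 197 and 182 FPKM at 0 h and 92, 95.2 and 93.7 FPKM at 48 h (log2 change -0.96, SE 0.05, limma adjusted p = 1.15e-07). Neither came near 0 at 48 h. RNA-binding and antiproliferative proteins fell with them: Zfp36l2 from 472 to 77.4 FPKM, Zfp36 from 150 to 22.7 FPKM, Btg1 from 234 to 63.5 FPKM and Tob1 from 29.2 to 11.2 FPKM. Tsc22d3, a glucocorticoid-induced brake, fell from 207 ± 60.2 to 24.1 ± 4.31 FPKM. Txnip, which limits glucose uptake, fell from 376 ± 80.3 to 86.2 ± 12.5 FPKM. The 2 called higher were Id3 from 26.8 to 53.9 FPKM and Foxo3 from 18.4 to 21.6 FPKM. The call of Foxo3 was lost without replicate 2 at 0 h or replicate 1 at 48 h (limma adjusted p = 0.063 and 0.0533) and with median-ratio or quantile scaling (0.185 and 0.32), while Foxo1 from 57.3 to 16.2 FPKM fell. Foxp1 and Bach2, which also maintain the naive state, did not pass (log2 changes -0.11 and -0.06).

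Homing receptors were divided. Of 39 genes for homing, egress and adhesion, 11 rose and 17 fell. Ccr7, the chemokine receptor for entry into lymph nodes, was at 184, 215 and 219 FPKM at 0 h and 314, 322 and 357 FPKM at 48 h and rose (log2 change 0.68, SE 0.08, limma adjusted p = 2.04e-05). Its libraries did not overlap between the times. S1pr1, which lets cells leave lymph nodes, was at 126, 133 and 155 FPKM at 0 h and 21.6, 18.4 and 23.3 FPKM at 48 h (log2 change -2.65, SE 0.10, limma adjusted p = 1.02e-08). Its antagonist Cd69, an early activation marker, was at 119, 94.3 and 62.1 FPKM at 0 h and 31.4, 31.1 and 35.3 FPKM at 48 h and was lower at 48 h (log2 change -1.42, SE 0.20, limma adjusted p = 9.36e-05). Receptors of skin and inflamed tissue appeared, with Ccr4 from 0.516 to 24.1 FPKM and Ccr8 from 1.67 to 11.8 FPKM. Cd44, the adhesion molecule of antigen-experienced cells, rose from 4.15 ± 0.909 to 20.5 ± 2.91 FPKM (log2 change 2.07, SE 0.58, limma adjusted p = 0.00775). Integrin genes changed in both directions: Itgb1 from 12.3 to 35.7 FPKM, Itgb7 from 267 to 105 FPKM, Itga4 from 55 to 8.74 FPKM and Itgb2 from 162 to 97.6 FPKM. Cxcr3, which marks Th1 cells, was at 0.313, 0.569 and 0.76 FPKM at 0 h and 0.194, 0.253 and 0.436 FPKM at 48 h and passed as lower only with the replicate block (limma adjusted p = 0.0205).

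Genes of the Bcl2 family, which holds both protectors from death and inducers of it, mostly rose. In the family 12 of 17 rose and 1 fell. Bcl2l1, which encodes the antiapoptotic Bcl-xL, was at 7.44, 7.96 and 6.49 FPKM at 0 h and 59, 76.4 and 58.8 FPKM at 48 h (log2 change 2.98, SE 0.16, limma adjusted p = 7.5e-08). Mcl1, another antiapoptotic member, was at 201, 184 and 199 FPKM at 0 h and 107, 102 and 110 FPKM at 48 h and was the one that fell (log2 change -0.87, SE 0.06, limma adjusted p = 3.6e-07). Bcl2 rose from 35.1 ± 3.67 to 50.8 ± 2.19 FPKM (log2 change 0.52, SE 0.08, limma adjusted p = 0.000138). The Bcl2a1 copies rose as well, with Bcl2a1b from 9.73 to 60.7 FPKM and Bcl2a1d from 1.6 to 23.9 FPKM, but they are near-identical genes among which reads can be split arbitrarily. Proapoptotic members rose too, Bak1 from 18.9 to 41 FPKM and Bax from 64.6 to 84.6 FPKM, and Bcl2l11, the death inducer of cytokine withdrawal, did not pass (log2 change 0.14, limma adjusted p = 0.295, and 0.0279 without replicate 1 at 0 h). Gimap GTPases, small proteins needed for the survival of resting lymphocytes, fell in 6 of 8 cases, led by Gimap8 from 120 to 31.7 FPKM and Gimap6 from 371 to 126 FPKM, while Gimap7 rose from 22.1 ± 2.38 to 55.1 ± 14.1 FPKM (log2 change 1.25, SE 0.15, limma adjusted p = 2.1e-05).

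Glycolysis took a larger share of the transcripts at 48 h. 29 of 34 genes for glucose and lactate transport and glycolysis rose and 2 fell (median log2 change 1.97). The list had 33 entries, which matched 34 Ensembl genes, and each of those was counted. Together the listed genes took 0.447% ± 0.0113 of all FPKM at 0 h and 2.09% ± 0.0404 at 48 h (SD, n = 3 each). At the entry, the glucose transporter Slc2a3 was at 12.1, 11.9 and 13 FPKM at 0 h and 211, 204 and 222 FPKM at 48 h (log2 change 4.0, SE 0.08, limma adjusted p = 3.73e-10), and Slc2a1 at 14.1, 13.3 and 13.8 FPKM at 0 h and 105, 112 and 115 FPKM at 48 h (log2 change 2.92, SE 0.06, limma adjusted p = 8.37e-10). Slc2a3 and Slc2a1 were alike at rest, and Slc2a3 was the higher of the 2 at 48 h. Hk1, the hexokinase of resting cells, rose from 34.8 ± 2.84 to 108 ± 7.23 FPKM (log2 change 1.61, SE 0.06, limma adjusted p = 1.35e-08) and stayed above Hk2 at 48 h. All 3 phosphofructokinase genes rose (Pfkp from 33.2 to 189 FPKM, Pfkl from 18.5 to 100 FPKM and Pfkm from 7.36 to 31.6 FPKM). Farther down the pathway Tpi1 was at 20.2, 20.1 and 20.4 FPKM at 0 h and 573, 611 and 599 FPKM at 48 h (log2 change 4.81, SE 0.16, limma adjusted p = 6.3e-09), and Pgk1 at 69.8, 72 and 75.3 FPKM at 0 h and 800, 818 and 801 FPKM at 48 h (log2 change 3.46, SE 0.09, limma adjusted p = 1.93e-09). Pkm reached 1161 ± 46.3 FPKM from 247 ± 18.5. At the exit, Ldha, which makes lactate, was at 241, 227 and 246 FPKM at 0 h and 907, 984 and 922 FPKM at 48 h (log2 change 1.97, SE 0.07, limma adjusted p = 9.19e-09), and the lactate exporter Slc16a3 at 1.4, 1.41 and 1.05 FPKM at 0 h and 101, 107 and 105 FPKM at 48 h (log2 change 5.53, SE 0.21, limma adjusted p = 1.12e-08). The 2 genes that fell, Pfkfb2 from 7.61 to 3.3 FPKM and Tigar from 5.75 to 4.23 FPKM, set the level of fructose 2,6-bisphosphate.

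Mitochondrial fuel use changed less per gene. Of 27 genes of the tricarboxylic acid cycle and its inputs 23 rose and 2 fell (median log2 change 0.64), among them Got1 from 15.7 to 71.5 FPKM and Fh1 from 15.5 to 52.9 FPKM. Pcx, which refills the cycle from pyruvate, was at 1.01, 1.11 and 1.24 FPKM at 0 h and 19.3, 19.4 and 23.2 FPKM at 48 h (log2 change 3.35, SE 0.09, limma adjusted p = 1.93e-09). Gls2, a glutaminase, was at 0.0471, 0.0264 and 0.0436 FPKM at 0 h and 9.96, 10.7 and 12.6 FPKM at 48 h (log2 change 3.53, SE 0.10, limma adjusted p = 2.88e-09), and so went from near 0 to a readable level. All 13 protein-coding genes of the mitochondrial genome were lower, at a median log2 change of -0.91, and their share of FPKM was 3.95% ± 0.624 at 0 h and 1.99% ± 0.026 at 48 h. Nuclear genes for mitochondrial ribosomal proteins had the opposite trend, with 73 of 78 higher and 2 lower (median 0.83). In the pentose phosphate pathway 6 of 7 rose, with Tkt from 55.2 to 195 FPKM and G6pdx from 14.9 to 37.6 FPKM, and Taldo1 was the exception.

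Enzymes that supply building blocks rose together. For amino acid transporters, 10 of 16 rose and 3 fell. Slc7a5, the leucine transporter, was at 18.3, 19.6 and 20.7 FPKM at 0 h and 73.8, 85.6 and 66.5 FPKM at 48 h (log2 change 1.89, SE 0.08, limma adjusted p = 2.42e-08), and its heavy chain Slc3a2 rose from 46.9 ± 1.88 to 77.8 ± 4.96 FPKM. Slc1a5, the main glutamine transporter, rose from 91.3 ± 13.6 to 124 ± 3.84 FPKM. The 3 that fell were Slc38a2 from 75.9 to 40.3 FPKM, Slc36a1 and Slc38a9. In serine and folate one-carbon metabolism 14 of 20 rose and 3 fell. Psat1, the second enzyme of serine synthesis, was at 11.9, 10.9 and 12.4 FPKM at 0 h and 115, 131 and 102 FPKM at 48 h (log2 change 3.19, SE 0.14, limma adjusted p = 2.45e-08), and Phgdh, the first, rose from 41 ± 1.69 to 210 ± 21 FPKM. The mitochondrial arm rose with them, Shmt2 from 43.2 to 153 FPKM and Mthfd2 from 22 to 87.5 FPKM. Mat2a, which makes S-adenosylmethionine, fell from 71.9 ± 11.3 to 55.6 ± 2.61 FPKM (log2 change -0.36, SE 0.11, limma adjusted p = 0.0112), whereas Ahcy, which clears its product, rose from 19.7 ± 0.817 to 109 ± 8.43 FPKM. For polyamine synthesis 13 of 14 rose and none fell, with Odc1, the first enzyme, at 31.7, 32.3 and 34.2 FPKM at 0 h and 181, 227 and 200 FPKM at 48 h (log2 change 2.59, SE 0.10, limma adjusted p = 1.4e-08).

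Of 16 purine genes 14 rose and 1 fell, and of 21 pyrimidine and deoxynucleotide genes 15 rose and 4 fell. The steps special to DNA had the larger changes. Rrm2, the cell-cycle subunit of ribonucleotide reductase, was at 2.07, 2.44 and 1.4 FPKM at 0 h and 106, 111 and 103 FPKM at 48 h (log2 change 5.20, SE 0.37, limma adjusted p = 4.82e-07). Tk1, thymidine kinase, was at 4.47, 3.57 and 3.48 FPKM at 0 h and 91.2, 95.2 and 90.5 FPKM at 48 h (log2 change 4.27, SE 0.25, limma adjusted p = 1.36e-07). Rrm2b, the subunit of resting cells, was at 8.85, 10 and 10.9 FPKM at 0 h and 3.65, 3.68 and 3.75 FPKM at 48 h (log2 change -1.21, SE 0.09, limma adjusted p = 7.73e-07), so the ratio of Rrm2 to Rrm2b was 0.128 to 0.244 at 0 h and 27.5 to 30.2 at 48 h. Enzymes that also serve RNA synthesis changed less: Paics from 38.6 to 120 FPKM, Gart from 38.7 to 105 FPKM, Cad from 16.3 to 47.2 FPKM and Impdh2 from 55.5 to 152 FPKM. Adssl1, known as the muscle form of adenylosuccinate synthase, was at 0.146, 0.0785 and 0.135 FPKM at 0 h and 10, 9.47 and 12 FPKM at 48 h (log2 change 3.35, SE 0.38, limma adjusted p = 1.77e-05), while the widespread form Adss rose from 31.1 to 45 FPKM.

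Lipid genes showed synthesis and efflux apart. Among 33 cholesterol genes 26 rose and 6 fell (median log2 change 1.27). Hmgcs1, an early enzyme of the mevalonate pathway, was at 16.8, 12.9 and 15.9 FPKM at 0 h and 130, 130 and 109 FPKM at 48 h (log2 change 2.94, SE 0.12, limma adjusted p = 1.66e-08). The efflux pumps Abca1 and Abcg1 and the ligase Mylip, which destroys the receptor for LDL, fell: Mylip was at 24, 28.1 and 28.9 FPKM at 0 h and 2.35, 2.33 and 2.72 FPKM at 48 h (log2 change -3.01, SE 0.08, limma adjusted p = 2.76e-09), Abcg1 from 25.1 to 9.97 FPKM and Abca1 from 4.49 to 0.246 FPKM. Those 3 are among the targets of LXR receptors, and the LXR gene Nr1h2 fell from 86.8 to 67 FPKM. LXR targets were not read as a list, so others may have moved otherwise, and a link to LXR was not tested. In fatty acid metabolism 18 of 27 rose and 6 fell. Desaturases led the rise, Fads2 at 0.0246, 0.0109 and 0.0123 FPKM at 0 h and 27.7, 30.7 and 20.7 FPKM at 48 h (log2 change 4.73, SE 0.29, limma adjusted p = 2.07e-07) and Scd1 from 0.184 to 14.8 FPKM. The carrier Fabp5 rose from 2.71 ± 0.256 to 76.9 ± 13.6 FPKM. Acss2, which makes acetyl-CoA from acetate, fell from 33.4 ± 2.12 to 15.3 ± 1.1 FPKM (log2 change -1.08, SE 0.09, limma adjusted p = 1.26e-06), and Acly, which makes it from citrate, rose from 66.6 ± 3.95 to 127 ± 7.25 FPKM (log2 change 0.92, SE 0.06, limma adjusted p = 2.93e-07). Iron genes were mixed, with 11 of 22 higher and 6 lower, shares near those of all genes. Tfrc, the transferrin receptor, was at 17.7, 14.7 and 16.3 FPKM at 0 h and 161, 163 and 131 FPKM at 48 h (log2 change 3.14, SE 0.13, limma adjusted p = 1.71e-08), and the storage gene Fth1 fell from 255 ± 25.1 to 150 ± 6.84 FPKM (log2 change -0.76, SE 0.08, limma adjusted p = 6.37e-06).

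**Figure D3:**
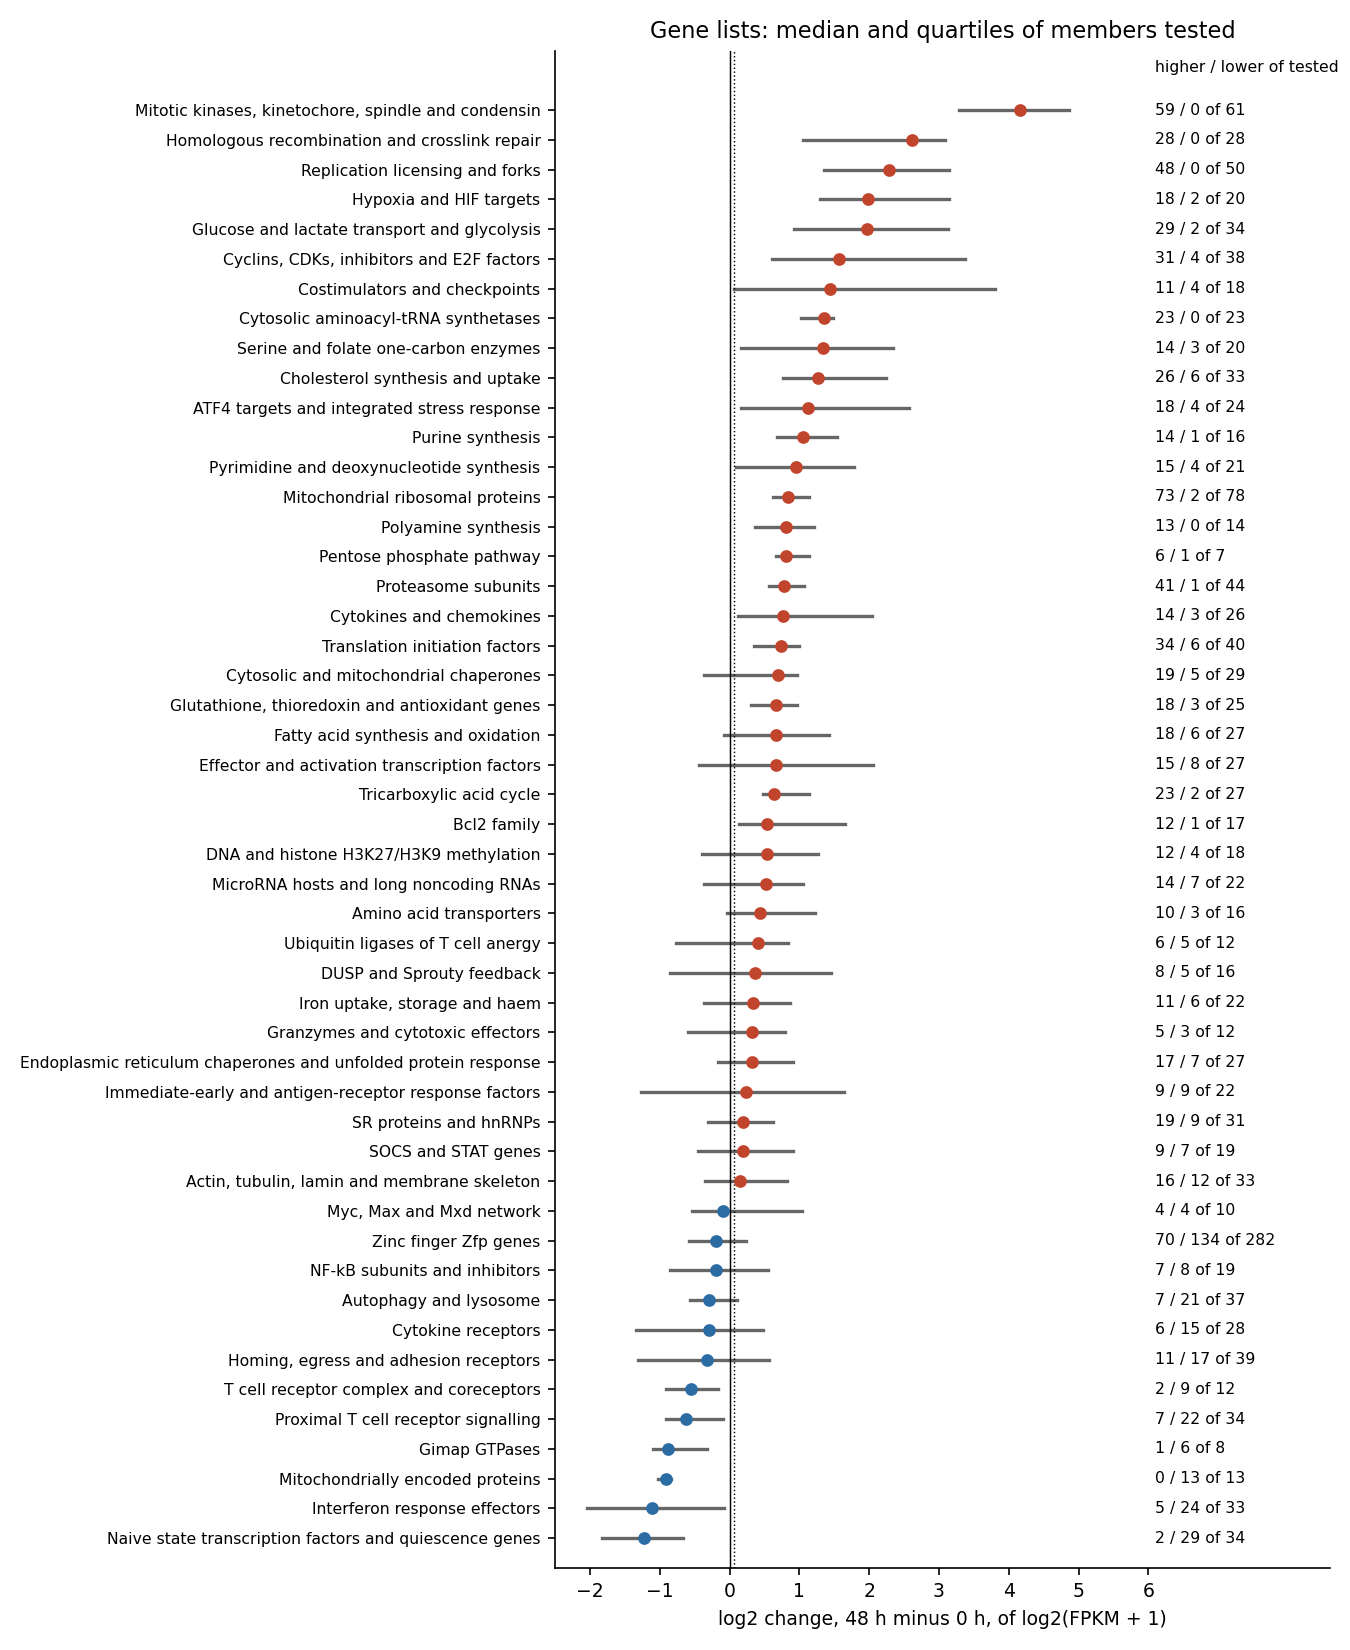
Median (points) and quartiles (lines) of the log2 change, 48 h minus 0 h, over the tested members of 49 gene lists, with the number higher and lower of those tested at the right; the dotted line marks the median of all genes, 0.069. Mitotic genes stand at the top and naive state factors at the bottom.

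The machinery that makes and removes proteins rose broadly. Every one of the 23 cytosolic aminoacyl-tRNA synthetases and their cofactors that were tested rose (median log2 change 1.35), from Tars from 22.8 to 32.4 FPKM to Vars from 53.1 to 175 FPKM. Of 40 initiation factors 34 were higher and 6 lower. Eif4e, the cap-binding protein, rose from 10.7 ± 1.28 to 26.7 ± 1.19 FPKM (log2 change 1.24, SE 0.10, limma adjusted p = 1.05e-06). The helicase Eif4a1 rose from 254 ± 8.49 to 332 ± 15.6 FPKM, and its near relative Eif4a2, the more abundant of the 2 at rest, was at 388, 392 and 386 FPKM at 0 h and 166, 158 and 168 FPKM at 48 h (log2 change -1.24, SE 0.06, limma adjusted p = 3.99e-08). In the proteasome group 41 of 44 rose and 1 fell; the match by name also took Psmc3ip, a recombination factor that is no subunit and rose from 2.44 to 13.3 FPKM. The immunoproteasome subunit Psmb10 fell from 82.9 ± 4.12 to 58.9 ± 2.42 FPKM (log2 change -0.49, SE 0.08, limma adjusted p = 0.000398), while the subunit it replaces, Psmb7, rose from 41.6 ± 1.42 to 119 ± 2.25 FPKM. The other immunoproteasome subunits rose, Psmb8 from 148 to 223 FPKM and Psmb9 from 78.2 to 130 FPKM. Chaperones of the cytosol and mitochondria rose in 19 of 29 cases, with all 8 tested subunits of the CCT ring (from Cct4 from 99.6 to 162 FPKM to Tcp1 from 84.5 to 241 FPKM). Heat shock factor Hsf1 fell from 45.5 ± 3.26 to 24.8 ± 1.26 FPKM, as did the cochaperones Dnaja1 and Dnajb1. Antioxidant genes rose in 18 of 25 cases, with Txn1 from 31.7 to 167 FPKM and Prdx4 from 8.57 to 52 FPKM, while their regulator Nfe2l2 fell from 30.7 ± 1.34 to 15.5 ± 0.448 FPKM.

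Targets of the stress factor ATF4, which induces amino acid synthesis and transport, mostly rose. Of 24 genes 18 rose and 4 fell (median log2 change 1.13). Asns, asparagine synthetase, was at 0.102, 0.16 and 0.0909 FPKM at 0 h and 42.7, 47.9 and 32.8 FPKM at 48 h (log2 change 5.22, SE 0.27, limma adjusted p = 6.61e-08). Trib3, a pseudokinase that feeds back on ATF4, was at 2.49, 3.19 and 2.71 FPKM at 0 h and 19.2, 22.9 and 18.1 FPKM at 48 h (log2 change 2.47, SE 0.13, limma adjusted p = 5.25e-08). Cth, which makes cysteine, was listed at 0 in all 3 libraries at 0 h and at 7.6, 11 and 5.18 FPKM at 48 h. Ppp1r15a, which resets the pathway by dephosphorylating eIF2-alpha, was at 164, 153 and 148 FPKM at 0 h and 13.7, 14.2 and 16.9 FPKM at 48 h and had the reverse trend (log2 change -3.30, SE 0.16, limma adjusted p = 3.56e-08). Genes of the endoplasmic reticulum were less uniform, with 17 of 27 higher and 7 lower: the oxidase Ero1l from 11.6 to 134 FPKM and P4hb from 58.7 to 190 FPKM rose, and Dnajb9 from 28.2 to 3.53 FPKM and Dnajc3 from 37.9 to 20.4 FPKM fell.

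Genes of the hypoxia response rose in 18 of 20 cases (median log2 change 1.98). Hif1a, the oxygen-regulated subunit, rose from 23.9 ± 1.25 to 84.1 ± 6.96 FPKM (log2 change 1.77, SE 0.09, limma adjusted p = 6.97e-08). Bnip3, a mitophagy receptor, was at 2.85, 2.85 and 3.6 FPKM at 0 h and 143, 152 and 145 FPKM at 48 h (log2 change 5.17, SE 0.08, limma adjusted p = 1.27e-10). Vegfa, the angiogenic growth factor, was at 0.597, 0.648 and 0.509 FPKM at 0 h and 40.7, 40.7 and 39.9 FPKM at 48 h (log2 change 4.71, SE 0.09, limma adjusted p = 3.65e-10). Neither overlapped between the times. Ndrg1, Hilpda and Ankrd37 rose from 7.45 to 149 FPKM, from 14.5 to 127 FPKM and from 4.84 to 62.9 FPKM. The 2 that fell were Epas1 from 4.42 to 0.943 FPKM, the other oxygen-regulated subunit, and Egln2 from 40.3 to 30.5 FPKM. The sources used here do not give the oxygen level of the cultures.

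The mitotic, recombination and replication lists had the highest medians of the 49 lists. Of 50 genes for replication licensing and forks 48 rose and none fell (median log2 change 2.29). Mcm3, a subunit of the replicative helicase, was at 16.4, 17.5 and 17.2 FPKM at 0 h and 154, 161 and 151 FPKM at 48 h (log2 change 3.11, SE 0.11, limma adjusted p = 7.65e-09). Mcm10, which helps to activate that helicase, was at 0.0772, 0.0723 and 0.153 FPKM at 0 h and 25.8, 31.5 and 29.6 FPKM at 48 h (log2 change 4.76, SE 0.24, limma adjusted p = 5.49e-08). Helicase subunits were thus already read at rest, with means from 13.8 FPKM for Mcm5 to 26.2 FPKM for Mcm7, while some loading and firing factors were low: Cdc6 from 0.235 to 18.2 FPKM, Orc1 from 0.325 to 12.1 FPKM and Cdc45 from 1.12 to 50.2 FPKM. Others changed less, as in Cdt1, Gins3 and Orc3 with log2 changes of 1.32, 1.35 and 0.35. In the cyclin, CDK and E2F group 31 of 38 rose and 4 fell. The D-type cyclins, which answer to growth signals, were abundant at both times: Ccnd2 was at 88.7, 68.2 and 96.3 FPKM at 0 h and 93, 90.1 and 92.4 FPKM at 48 h and did not pass (log2 change 0.14, SE 0.11, limma adjusted p = 0.291), and Ccnd3 rose from 131 ± 19 to 179 ± 5.04 FPKM. Their kinase partners Cdk4 and Cdk6 rose from 47.1 to 143 FPKM and from 3.08 to 19.3 FPKM. Ccna2, the cyclin of S phase and mitotic entry, was at 0.452, 0.772 and 0.398 FPKM at 0 h and 94.7, 94.6 and 86.2 FPKM at 48 h (log2 change 5.92, SE 0.39, limma adjusted p = 2.86e-07). Cdk inhibitors diverged: Cdkn1b, the p27 protein of resting cells, fell from 65.9 ± 3.3 to 49.8 ± 3.45 FPKM (log2 change -0.40, SE 0.07, limma adjusted p = 0.000371), and Cdkn2c rose from 1.73 ± 0.321 to 25.7 ± 0.214 FPKM.

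Mitotic genes formed the list with the highest median, 4.16, with 59 of 61 higher and none lower. Top2a, the topoisomerase that untangles chromosomes, was at 3.12, 3.59 and 2.19 FPKM at 0 h and 223, 214 and 201 FPKM at 48 h (log2 change 5.77, SE 0.37, limma adjusted p = 2.32e-07). Ube2c, the ubiquitin-conjugating enzyme of the anaphase-promoting complex, was at 1.21, 1.48 and 0.897 FPKM at 0 h and 155, 163 and 140 FPKM at 48 h (log2 change 6.14, SE 0.47, limma adjusted p = 9.34e-07). The 2 that did not pass were the condensin subunit Smc4, at 103, 135 and 105 FPKM at 0 h and 119, 115 and 118 FPKM at 48 h, and Pttg1, the securin, at 18.6, 21.9 and 21.1 FPKM at 0 h and 15.5, 19 and 15.3 FPKM at 48 h; Pttg1 passed as lower with only the 6 libraries (limma adjusted p = 0.0257, and 0.00947 with the replicate block added) and with the correction for GC content and length (0.0205). Smc4's partner Smc2 rose from 5.33 ± 0.925 to 40.2 ± 1.67 FPKM, so the pair was far from even at rest and closer at 48 h. Cenpa, the centromeric histone, rose from 25.8 ± 3.93 to 166 ± 3.44 FPKM. All 28 genes tested for homologous recombination and crosslink repair rose (median 2.62), among them Rad51ap1 from 0.447 to 38 FPKM and Rad54l from 0.351 to 22.5 FPKM. Core Fanconi subunits changed less, as in Fance from 14.8 to 22.6 FPKM and Fancg from 8.63 to 13.9 FPKM.

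Chromatin and cytoskeleton genes moved in both directions. Among enzymes of DNA and H3K27 or H3K9 methylation 12 of 18 rose and 4 fell. Uhrf1, which recruits the maintenance methyltransferase to replicated DNA, was at 2.09, 1.75 and 2.05 FPKM at 0 h and 128, 129 and 127 FPKM at 48 h (log2 change 5.45, SE 0.31, limma adjusted p = 1.03e-07), and Dnmt1, that enzyme, rose from 39.5 ± 3.83 to 128 ± 2.04 FPKM. Ezh2, the Polycomb methyltransferase, rose from 14.8 ± 2.1 to 101 ± 3.57 FPKM, while Ezh1 fell from 28 ± 0.794 to 19.3 ± 1.98 FPKM. The demethylating Tet3 and Tet1 fell and Tet2 rose (from 11.9 to 19.5 FPKM). Of 33 cytoskeletal genes 16 rose and 12 fell, shares near those of all genes. Stmn1, a microtubule destabiliser, was at 32.4, 29.9 and 24.5 FPKM at 0 h and 286, 292 and 269 FPKM at 48 h (log2 change 3.25, SE 0.32, limma adjusted p = 5.35e-06). Tubulins Tubb5 from 198 to 604 FPKM and Tuba1b from 220 to 703 FPKM rose with the lamin Lmnb1 from 17.8 to 120 FPKM. Flna, an actin crosslinker, was at 222, 200 and 241 FPKM at 0 h and 57, 53.9 and 49.8 FPKM at 48 h (log2 change -2.02, SE 0.07, limma adjusted p = 7.7e-09). Actn1 from 178 to 46.5 FPKM, Myh9 from 286 to 141 FPKM, Coro1a from 808 to 505 FPKM and Msn from 307 to 162 FPKM, all tied to the actin cortex, fell.

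Most of the listed interferon response genes were read in resting cells and fell. Of 33 effectors 24 were lower and 5 higher (median log2 change -1.11). Irf7, the factor that amplifies the response, was at 39, 41.2 and 46.3 FPKM at 0 h and 3.85, 3.31 and 6.83 FPKM at 48 h (log2 change -2.98, SE 0.20, limma adjusted p = 3.74e-07). Ifit3, an antiviral protein induced by type I interferon, was at 9.8, 12 and 21.3 FPKM at 0 h and 0.654, 0.689 and 1.37 FPKM at 48 h (log2 change -2.96, SE 0.29, limma adjusted p = 5.99e-06). Oas2 was at 21.2, 19 and 21.7 FPKM at 0 h and 0.169, 0.16 and 0.318 FPKM at 48 h (log2 change -4.15, SE 0.14, limma adjusted p = 5.9e-09). Their libraries did not overlap between the times. Guanylate-binding protein Gbp2 was the clearest exception in the list, at 20.2, 23 and 31 FPKM at 0 h and 155, 138 and 192 FPKM at 48 h (log2 change 2.67, SE 0.19, limma adjusted p = 4.47e-07), and Igtp, Gbp3, Isg20 and Dhx58 also rose. Antiviral and interferon-inducible genes outside the list moved both ways by more. Ifitm2 rose from 0.334 to 117 FPKM and Ifi213 fell from 98 to 0.53 FPKM.

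Zinc-finger and lysosomal genes leaned lower, and splicing factors and noncoding host genes higher. Of 282 Zfp genes, which encode zinc-finger proteins, 70 rose and 134 fell (median log2 change -0.20). In autophagy and lysosome genes 21 of 37 fell and 7 rose, with Ctsd from 124 to 44.6 FPKM, Laptm5 from 430 to 213 FPKM and Map1lc3b from 45.5 to 25.9 FPKM, against Gabarapl1 from 1.1 to 19.3 FPKM and Ctsz from 17.9 to 57.5 FPKM. Of 31 SR proteins and hnRNPs, which steer splicing, 19 were higher and 9 lower: Hnrnpa1 from 190 to 399 FPKM, Hnrnpab from 138 to 321 FPKM, Srsf6 from 160 to 67.7 FPKM and Srsf5 from 280 to 164 FPKM. Hnrnpll, a regulator of CD45 splicing in activated T cells, rose from 17.5 ± 1.28 to 45.5 ± 3.04 FPKM (log2 change 1.33, SE 0.10, limma adjusted p = 7.04e-07). Among 22 long noncoding and microRNA host genes 14 were higher and 7 lower. Mir155hg, the host of miR-155, was at 0.232, 0.464 and 0.386 FPKM at 0 h and 9.75, 13.1 and 12.2 FPKM at 48 h (log2 change 3.21, SE 0.11, limma adjusted p = 7.39e-09), and the nuclear RNA Malat1 was at 205, 205 and 195 FPKM at 0 h and 54.9, 66.7 and 81.1 FPKM at 48 h (log2 change -1.58, SE 0.23, limma adjusted p = 9.24e-05). Neat1, which shares its locus, rose from 21.4 ± 1.28 to 36.1 ± 4.44 FPKM. By annotation, 231 of 408 antisense genes were lower and 89 higher (median -0.41), against 3727 lower and 5193 higher of 11193 protein-coding genes (median 0.13). The sources used here do not say whether counting used strand, so reads of an antisense gene and of its partner may not be separated.

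Several gene families held members that moved in opposite directions. In 20 pairs of related genes, picked after their values were seen and so a description only, one member rose and the other fell with limma. For the monocarboxylate transporters the FPKM ratio of Slc16a3 to Slc16a5 was 0.0333 to 0.0432 at 0 h and 333 to 450 at 48 h. The ratio of Ezh2 to Ezh1 was 0.454 to 0.579 at 0 h and 4.64 to 6.08 at 48 h, that of Dusp4 to Dusp1 0.0112 to 0.013 at 0 h and 4.9 to 5.58 at 48 h, and that of Fosl2 to Fos 0.0306 to 0.0424 at 0 h and 7.52 to 9.84 at 48 h. In each of these the less abundant gene at rest was the more abundant at 48 h. The same exchange held for Eif4a1 over Eif4a2 (0.635 to 0.666 at 0 h and 1.92 to 2.21 at 48 h), Jak3 over Jak1 (0.334 to 0.363 at 0 h and 1.72 to 1.96 at 48 h), Rbl1 over Rbl2 (0.516 to 0.62 at 0 h and 1.66 to 1.82 at 48 h), Cblb over Cbl (0.474 to 0.543 at 0 h and 2.26 to 2.73 at 48 h) and Ctps over Ctps2 (0.292 to 0.322 at 0 h and 1.27 to 1.46 at 48 h). Other pairs moved without changing order: Bcl2l1 over Mcl1 was 0.0326 to 0.0433 at 0 h and 0.535 to 0.749 at 48 h, and Itgb1 over Itgb7 was 0.0424 to 0.0487 at 0 h and 0.266 to 0.418 at 48 h.

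**Figure D4:**
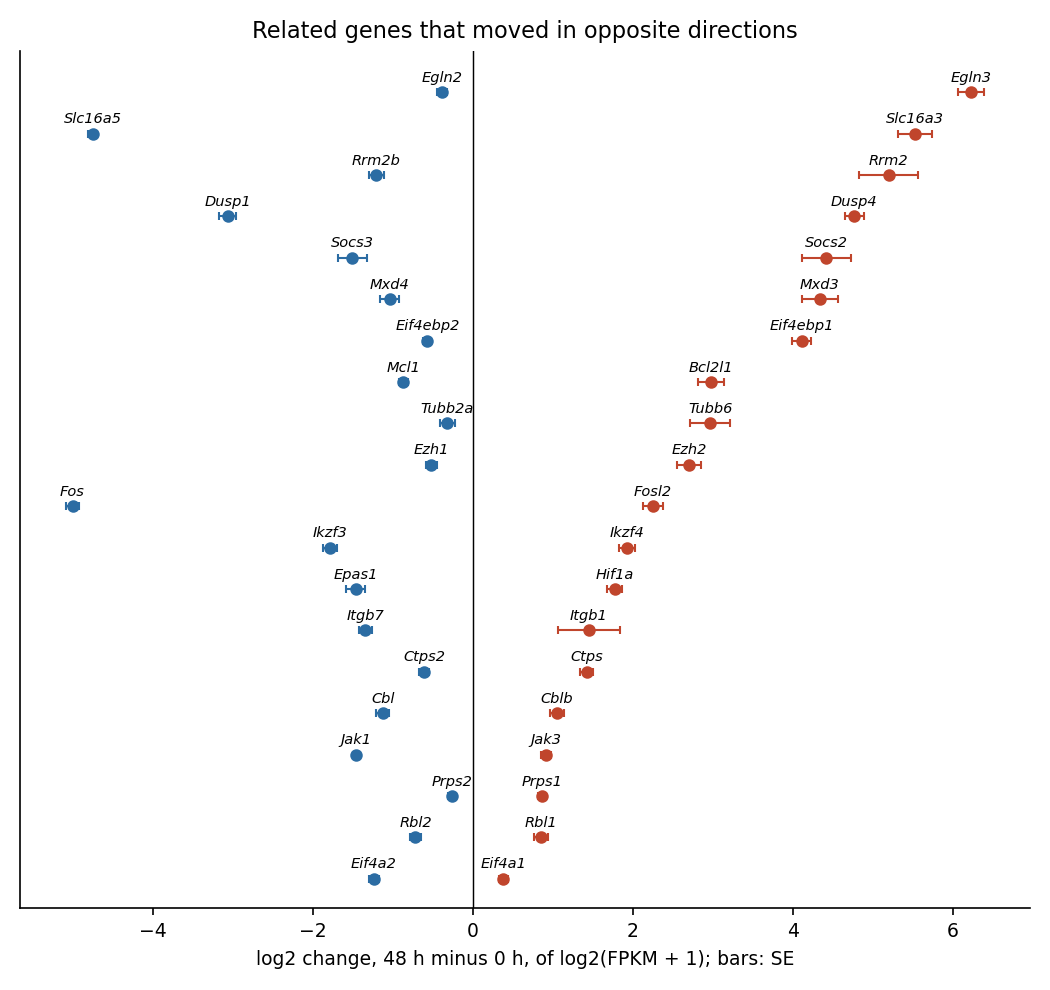
Log2 change, 48 h minus 0 h, of both members of 20 pairs of related genes, 1 pair per row; bars are SE from limma. The member in red rose and the member in blue fell. Rows are ordered by the change of the member that rose, from Egln3 and Egln2 with 6.23 and -0.39 to Eif4a1 and Eif4a2 with 0.38 and -1.24.

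Groups of genes that moved together were read for known promoter motifs in windows from 250 bases before to 50 after each start, taken from RefSeq (GRCm38.p6) for 9349 of the 12511 genes tested. Both strands were searched, and a match is a description of these letters and not a bound site. One window per group is printed, that of the member with the largest change among those holding the motif, 5′ to 3′ on the gene's strand, with every match of the group's motif in capitals. For mitotic genes the motif is the CHR element TTTGAA (reverse TTCAAA), bound in quiescent cells by the DREAM complex, in Ube2c (chr2:164769679-164769978, + strand). For replication genes it is the E2F site TTTGGCGC, in Mcm3 (chr1:20820263-20820562, - strand). Matches of a second motif searched in these groups, CCAAT in Ube2c and the E2F form TTTCCCGC in Mcm3, are left in small letters. For ATF4 targets it is the CARE element TGATGNAA, in Asns (chr6:7693160-7693459, - strand). For interferon effectors it is the core of the interferon-stimulated response element GAAANNGAA, in Ifit3 (chr19:34583279-34583578, + strand).
Ube2c: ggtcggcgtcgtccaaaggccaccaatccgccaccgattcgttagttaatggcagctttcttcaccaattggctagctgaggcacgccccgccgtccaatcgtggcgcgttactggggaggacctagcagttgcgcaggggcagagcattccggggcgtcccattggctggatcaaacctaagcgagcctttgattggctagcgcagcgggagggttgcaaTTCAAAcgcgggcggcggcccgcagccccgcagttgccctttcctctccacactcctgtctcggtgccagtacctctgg
Mcm3: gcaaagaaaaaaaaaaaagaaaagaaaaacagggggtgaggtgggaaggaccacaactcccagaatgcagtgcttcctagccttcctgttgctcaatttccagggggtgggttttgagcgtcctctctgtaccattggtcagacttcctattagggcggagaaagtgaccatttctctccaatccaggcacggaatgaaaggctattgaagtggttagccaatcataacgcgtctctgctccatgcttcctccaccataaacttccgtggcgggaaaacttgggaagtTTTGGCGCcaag
Asns: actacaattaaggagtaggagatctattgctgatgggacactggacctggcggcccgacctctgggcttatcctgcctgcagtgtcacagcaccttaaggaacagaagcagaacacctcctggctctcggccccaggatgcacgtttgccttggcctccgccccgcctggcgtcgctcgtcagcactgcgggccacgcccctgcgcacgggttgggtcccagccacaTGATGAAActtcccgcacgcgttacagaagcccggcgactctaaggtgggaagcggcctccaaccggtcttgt
Ifit3: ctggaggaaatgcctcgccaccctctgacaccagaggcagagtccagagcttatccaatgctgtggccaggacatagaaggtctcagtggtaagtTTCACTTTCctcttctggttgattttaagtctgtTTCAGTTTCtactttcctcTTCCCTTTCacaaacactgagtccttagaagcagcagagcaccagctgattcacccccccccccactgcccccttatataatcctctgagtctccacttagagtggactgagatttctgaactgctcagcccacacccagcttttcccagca

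The motifs were unevenly spread. TTTGAA was in 35 of 53 mitotic windows (66%), against 16% of all genes at least 2-fold higher, 13.5% of those at least 2-fold lower and 17.9% of all 32851 windows. CCAAT, which often precedes it, was in 64.2% of mitotic windows, 39.5% of windows of genes tested and 37.4% of all windows. The 32851 windows include those of genes not tested and may hold several for a gene. TTTGGCGC was in 7 of 41 replication windows (17.1%) and 0.514% of all windows. The share was 1.77% among genes at least 2-fold higher, 0.122% among those at least 2-fold lower and 1.04% among all genes tested. A second E2F form, TTTCCCGC, was in 17.1% of replication windows and 1.07% of all windows. Its share was 3.49% among genes at least 2-fold higher and 2.18% among all genes tested. TGATGNAA was in 6 of 22 windows of the ATF4 list (27.3%), 2.25% of those of genes tested and 3.97% of all windows. GAAANNGAA was in 18 of 25 interferon windows (72%), 9.55% of genes at least 2-fold lower, 7.38% of all genes tested and 8.56% of all windows. The sterol element TCACNCCAC was in 1 of 25 cholesterol windows, Hmgcs1, and 1.24% of all windows. CACGTG, the E-box of Myc and its partners, was in 3 of 15 purine windows and in 9.67% of genes at least 2-fold higher against 9.91% of those at least 2-fold lower. The motif and the lists were both chosen with known biology, and no test was made of these shares.

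**Figure D5:**
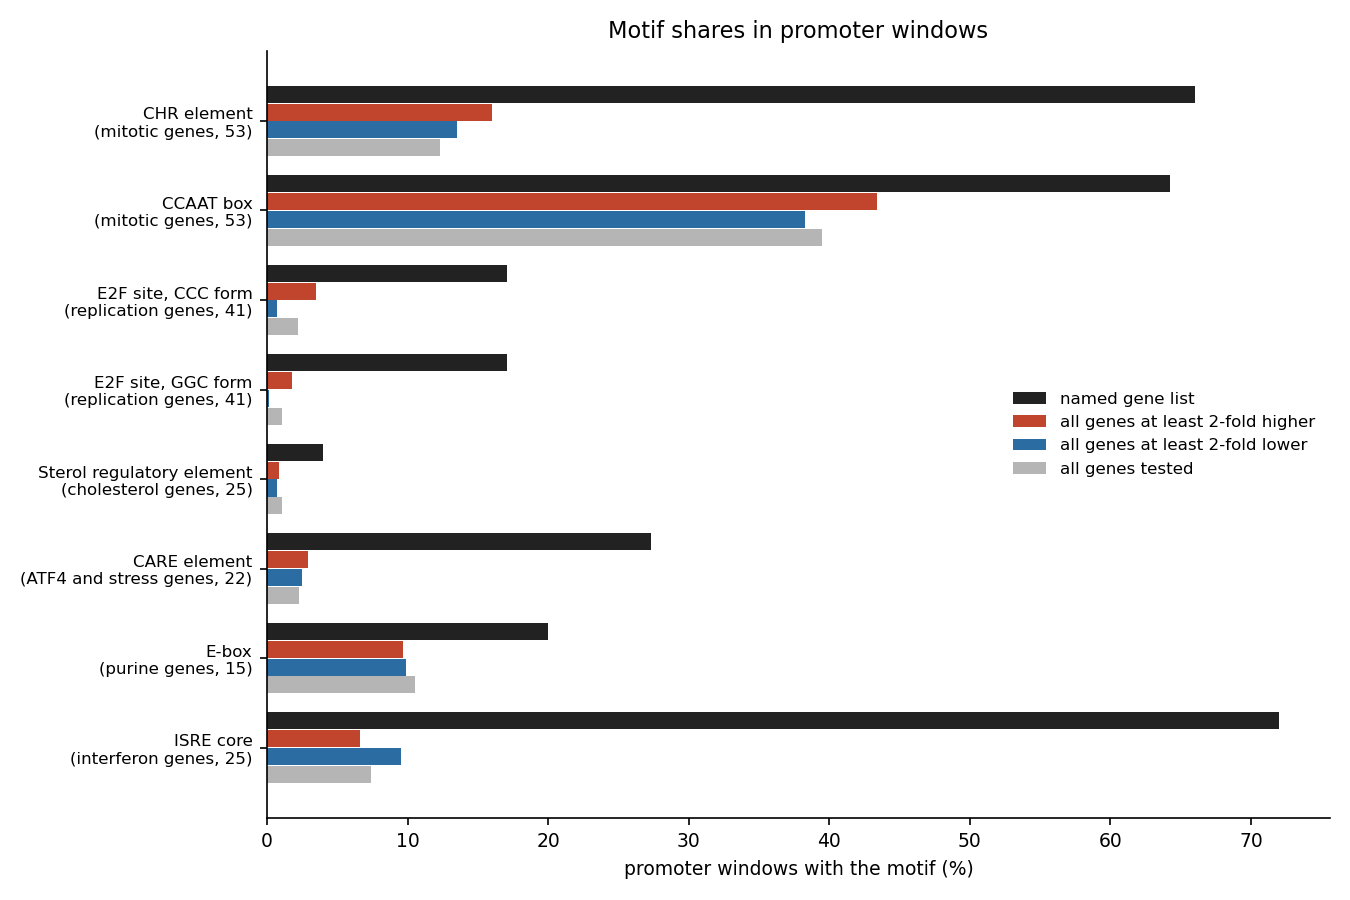
Percent of promoter windows that hold each motif, for the gene list it was searched in (dark bars, with the number of windows), for all genes at least 2-fold higher (red) or lower (blue) at 48 h, and for all genes tested (grey). The CHR element reaches 66% of mitotic windows against 12.3% of windows of genes tested.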

How the data were processed

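The data used were FPKM values per gene for 32285 Ensembl genes in 12 libraries, deposited by the authors in one table. The submitters' processing notes name Bowtie and mm10 without a role; the FPKM tool, annotation and use of strand are not given in the sources used here. The low values held no steps from which reads could be recovered. Depth is therefore unknown, and no count test or counting interval was used; sums of FPKM ran from 345621 to 376934 in the 6 libraries, and 10716 to 11343 genes reached 1 FPKM. Pearson's r between replicates, across genes, was 0.9906 to 0.9974. Positions and biotypes came from GENCODE M21 on mm10 (32235 identifiers found).

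A gene was tested if 2 or more of the 12 libraries reached 1 FPKM (12511 tested, 19774 set aside). Values were analysed as log2(FPKM + 1), so fold changes of low genes are understated. One limma model (version 3.58.1, R 4.3.3, empirical Bayes with trend) with all 5 groups gave the contrast of 48 h against 0 h, with 7 residual degrees of freedom and Benjamini-Hochberg adjustment over the 12511 genes. Same-numbered libraries deviated together (correlations of deviations 0.261, 0.228 and 0.319), though no label says that they are paired. The main fit used no pairing, and a fit with a replicate block was an alternative. The others were another pseudocount, no filter, only the 6 libraries, 2 scalings, a correction for GC content and length, and leaving out each library. The script was tested on simulated data.

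The members and lists were chosen with earlier results of these data known, and lists are described by counts and medians only. The text names genes by a rule: the 15 higher and 15 lower genes of largest log2 change without overlap of libraries and with a mean of at least 5 FPKM, the leading members of each list, related genes in that list, and a set of known T cell genes; it prints part of them, and the gene pairs and the genes under other observations were picked by their values. Promoter windows came from RefSeq. Figures were drawn with matplotlib 3.10.9.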

Additional observations from a re-analysis of the deposited data

How the results depend on the processing

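The number of genes past the threshold, 9822, was 9362 to 9644 when any 1 library was left out, 9875 with a pseudocount of 0.1 FPKM, 10006 with only the 6 libraries and 10036 with the replicate block that pairs same-numbered samples (5490 higher, 4546 lower). Without a filter 12556 of 26679 genes passed. Scaling moved the balance of directions: higher genes were 55.5% of those that passed as deposited, 50.5% after median-ratio scaling, 45.7% after quantile scaling and 49.5% after the correction for GC content and length, with median log2 changes of 0.069, -0.012, -0.106 and -0.041. A log2 change within about that shift of 0 has no sure direction, and single genes moved by more than that. With the correction for GC content and length, the log2 change of Bax went from 0.38 to 0.02 and that of Cst3 from 0.70 to 0.39. With quantile scaling that of Gzmc went from 0.68 to 0.35. All 637 counts, of the direction with more genes in each of 49 lists under 13 alternatives, were within 1.5 times the reported count. Counts of the other direction were not compared. With the GC and length correction Adss, Bax, Cst3, Ptpn6 and Gzmc lost their calls, Gzmc and Foxo3 did so with quantile scaling and Foxo3 with median-ratio scaling. The depth of the libraries being unknown, values under 1 FPKM have no stated counting error, and 3 libraries a group limit the precision of all values.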

Other observations

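One chain of MHC class II stood apart from the others, and these genes were picked after their values were seen. H2-Ab1, the beta chain of the A molecule, was at 2.04, 1.96 and 4.26 FPKM at 0 h and 51.6, 52.1 and 64.9 FPKM at 48 h (log2 change 3.98, SE 0.90, limma adjusted p = 0.00229). Its partner H2-Aa was at 2.01, 1.84 and 4.06 FPKM at 0 h and 0.574, 0.472 and 1.9 FPKM at 48 h and did not pass (log2 change -0.90, SE 0.91, limma adjusted p = 0.389), except as lower when only the 6 libraries were fitted (limma adjusted p = 0.03, and 0.00013 with the replicate block added). H2-Eb1 was at 1.63, 1.25 and 2.71 FPKM at 0 h and 1.42, 1.42 and 2.4 FPKM at 48 h, and Ciita, the coactivator of the whole group, at 0.164, 0.162 and 0.241 FPKM at 0 h and 0.0689, 0.0409 and 0.162 FPKM at 48 h. Class I genes fell, with H2-K1 at 1455, 1555 and 1497 FPKM at 0 h and 671, 640 and 859 FPKM at 48 h (log2 change -1.06, SE 0.12, limma adjusted p = 1.37e-05) and B2m at 631, 809 and 715 FPKM at 0 h and 467, 470 and 552 FPKM at 48 h (log2 change -0.53, SE 0.10, limma adjusted p = 0.000858).

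Some of the 175 genes switched on are known from other tissues. Tg, thyroglobulin, was at 0.0633, 0.0371 and 0.07 FPKM at 0 h and 48.8, 47.3 and 55.4 FPKM at 48 h (log2 change 5.60, SE 0.14, limma adjusted p = 1.56e-09), and Mgarp, a mitochondrial protein of steroid-making cells, at 0.224, 0.252 and 0.183 FPKM at 0 h and 50.1, 46.5 and 58.1 FPKM at 48 h (log2 change 5.42, SE 0.09, limma adjusted p = 1.27e-10). Among the abundant genes of no list, Mif, a secreted cytokine-like protein, was at 131, 142 and 132 FPKM at 0 h and 706, 769 and 711 FPKM at 48 h (log2 change 2.42, SE 0.07, limma adjusted p = 2.36e-09), and Anxa2, a membrane-binding annexin, at 4.16, 3.2 and 3.62 FPKM at 0 h and 182, 177 and 200 FPKM at 48 h (log2 change 5.33, SE 0.65, limma adjusted p = 2.94e-05).

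Replicate 3 was the highest of the 3 libraries at 48 h for Gzmb (232 FPKM), Tbx21 (22.2 FPKM), Ifng (2.32 FPKM), Irf8 (163 FPKM) and Ly6c1 (8.4 FPKM). It was also the library of that time with Ddx3y, so sex and other properties of that library cannot be told apart.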
